A study of Mus musculus with 8 samples.

Results

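The inhibitors of cyclin-dependent kinases (CDKs) were followed in 2 mast cell lines and in the primary cells they are compared with. The set holds the INK4 genes Cdkn2a, Cdkn2b, Cdkn2c and Cdkn2d, the CIP/KIP genes Cdkn1a, Cdkn1b and Cdkn1c, the CDK-associated phosphatase gene Cdkn3, and Mtap, a neighbour of Cdkn2a. These genes were taken by their gene name and are 9 of the 55359 genes and 27 of the 142375 transcripts quantified. RNA was sequenced from 8 untreated cultures of peritoneal mast cells (PMCs) of wild-type C57BL/6x129/Sv mice. The spontaneously transformed lines PMC-303 and PMC-306 gave 1 library each, and primary PMCs gave 3 libraries from female and 3 from male mice, labelled as biological replicates. Ages are not given, and sex is labelled as not applicable for the lines, though the paper reports a male karyotype for PMC-306. The paper reports that PMC-306, unlike PMC-303, carries a heterozygous chromosome deletion that holds the Cdkn2a locus. The part of this deletion in the values below was not tested. Both lines were kept with less serum and less stem cell factor than the primary cultures, all with IL-3. In these libraries medium and transformation therefore cannot be told apart. The paper reports that PMC-306 grown in medium like that of the primary cultures did not change its expression of Cdkn2a, Arf or several mast cell proteases.

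The libraries held between 15918758 and 24180226 estimated counts, and values are given as CPM, counts relative to the scaled library size. The detection limit at 0 counts, taken as 3 counts, lay between 0.123 and 0.187 CPM and covers counting error only. The mast cell label was checked with 11 marker genes, which summed to between 53800 and 83591 CPM in the primary cultures, to 43541 CPM in PMC-303 and to 40143 CPM in PMC-306. Of these markers 6 were lower in the lines by limma and 5 were not called, where 15.5% of all genes tested were called lower. Macrophage markers summed to between 7.54 and 68.8 CPM in the primary cultures, to 8.93 CPM in PMC-303 and to 452 CPM in PMC-306. In PMC-306 Adgre1 alone had 426 CPM, while Csf1r and C1qa, also on the list, had at most 0.0982 CPM in both lines. Of the 8 macrophage markers 4 were tested by limma, of which 1 was higher, 0 lower and 3 not called. With PMC-306 as the only line the median log2 difference of these markers was 3.18. Their part in the results was not tested, and in bulk RNA fewer cells of a type and less RNA per cell cannot be told apart. The B cell, T cell, fibroblast with mesothelium, and granulocyte lists summed to at most 3.47 CPM in any library.

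INK4 proteins bind CDK4 and CDK6 and keep D-type cyclins from activating them, so that the retinoblastoma protein stays unphosphorylated and E2F factors stay bound. CIP/KIP proteins act on a broader set of cyclin-CDK complexes, above all on those of CDK2, and can also help cyclin D complexes to assemble. Cdkn2a encodes a pair of unrelated proteins from alternative first exons, INK4A and ARF, and ARF acts on p53 through MDM2.

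The deposited transcripts Cdkn2a-201 (INK4A) and Cdkn2a-202 (Arf) differ in their first exon and share the second, so that only a part of their length tells them apart in the counting. The first 60 coding bases of each are shown with the start codon in capitals, from the minus strand of GRCm39 at chr4:89200289-89200348 for INK4A and chr4:89212701-89212760 for Arf.
Cdkn2a-201 first exon: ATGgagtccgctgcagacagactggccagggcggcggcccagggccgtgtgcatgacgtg
Cdkn2a-202 first exon: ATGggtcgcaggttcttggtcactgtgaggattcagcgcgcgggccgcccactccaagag
The first exon contributes 126 coding bases to INK4A and 190 to Arf. The next 60 bases, at chr4:89195163-89195222, are therefore read in different frames, and the capitals mark the first codon that lies wholly in the second exon.
Cdkn2a-201 second exon: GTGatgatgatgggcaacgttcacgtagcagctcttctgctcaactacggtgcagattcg
Cdkn2a-202 second exon: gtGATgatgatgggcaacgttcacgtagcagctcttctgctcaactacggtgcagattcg
Sharing of sequence between a gene of the set and any other gene quantified was small. Of the 31-base words in the transcripts of Cdkn2a, Cdkn2c, Cdkn2d, Cdkn1c and Cdkn3, 0% occurred in a transcript of any other gene quantified, and the share was 0.484% for Cdkn2b, 0.0874% for Cdkn1b, 0.563% for Mtap and 3.24% for Cdkn1a.

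Of the 9 genes 8 passed the filter on low counts. Both lines together were compared with the 6 primary cultures by limma on log2(CPM + 0.1), with Benjamini-Hochberg adjustment over the 14529 genes tested. Cdkn1b, Cdkn2c, Cdkn2d and Cdkn3 were higher in the lines, 4 of 8, where 18.3% of all genes tested were called higher. Cdkn1a and Cdkn2a were lower, 2 of 8, where 15.5% of all genes were called lower. Cdkn2b and Mtap were not called, and they are the genes in which PMC-303 and PMC-306 differed most apart from Cdkn2a. Without PMC-306 Cdkn2b and Mtap were also called higher, which made 6 higher and 1 lower, and without PMC-303 the counts were 4 higher and 3 lower.

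Seen line by line, without a test, 6 of the 9 genes lay above the highest primary culture in PMC-303 and 2 lay below the lowest. Of all genes that reached 1 CPM there or on average in the primary cultures, 36.3% lay above and 30.2% below the primary range in PMC-303. In PMC-306, 5 of the 9 genes lay above and 3 below, and the shares of all genes were 34.6% and 32.8%. The 5 include Cdkn1c, which had 3 counts.

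**Figure D1:**
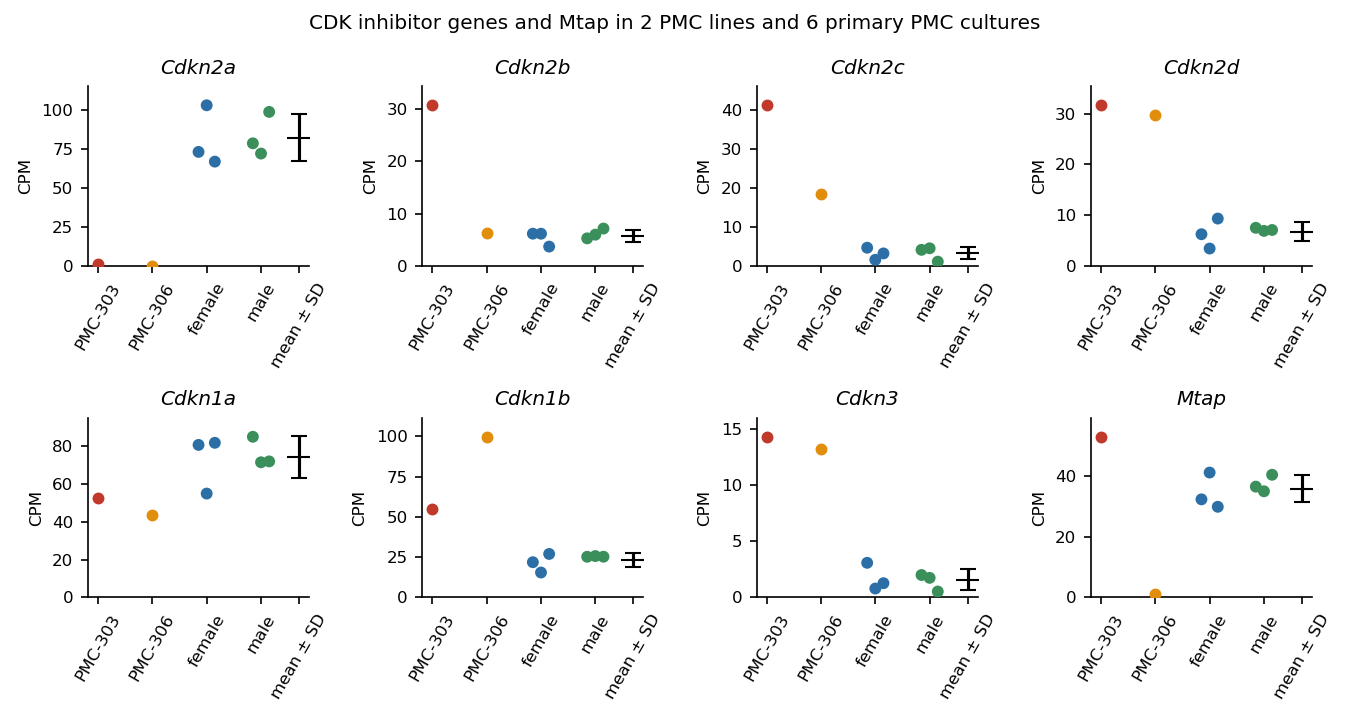
CPM of each gene (vertical axes, from 0) in PMC-303, PMC-306 and the 3 female and 3 male primary cultures (points), with the primary mean and SD at the right. Cdkn2c, Cdkn2d, Cdkn1b and Cdkn3 lie above the primary points in both lines, Cdkn2b lies above them in PMC-303 only, and Mtap is at 52.9 and 1.28 CPM in PMC-303 and PMC-306.

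Among the INK4 genes, Cdkn2c showed the largest rise. It encodes INK4C (p18), which is known for limiting the growth of lymphoid and other blood cells. The gene lies on chromosome 4 of GRCm39 from 109517957 to 109524386, on the same chromosome as the Cdkn2a locus but not next to it. Whether the deletion that the paper reports for PMC-306 reaches Cdkn2c was not tested. Cdkn2c had 41.3 and 18.6 CPM in the lines PMC-303 and PMC-306. Female cultures 1 to 3 had 4.69, 1.58 and 3.22 CPM and male cultures 1 to 3 had 4.14, 4.54 and 1.10 CPM, a primary mean of 3.21 ± 1.54 CPM (SD, n = 6). Both lines were above every primary culture, PMC-303 by 8.82-fold and PMC-306 by 3.96-fold over the highest of them. The log2 difference was 3.25 with an SE of 0.59 (adjusted p = 0.00368 by limma). Within the primary cultures the level spread 4.25-fold, with female culture 2 and male culture 3 at the low end.

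The libraries of the lines also differed from each other in Cdkn2c. The ratio of PMC-303 to PMC-306 was 2.23, with a 95% exact interval from 1.98 to 2.51. Such intervals cover counting error only, since each line has 1 library. Most counts of Cdkn2c were assigned to Cdkn2c-202, whose first base is 109524386, and the rest to Cdkn2c-201, which begins at 109524043. Cdkn2c-202 had 33.3 CPM in PMC-303, 12.7 CPM in PMC-306 and from 1.10 to 3.98 CPM in primary cultures, and it was called higher (log2 difference 3.13, SE 0.52, adjusted p = 0.00817 by limma). It lost this call without PMC-303 (2.44, adjusted p = 0.0757 by limma). Cdkn2c-201 had 8.03 and 5.84 CPM in the lines and from 0 to 1.64 CPM in primary cultures, and it missed the threshold (log2 difference 3.62, adjusted p = 0.0695 by limma). Assignment of reads to transcripts that share exons is an estimate, here and below.

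Cdkn2d rose by nearly the same amount in both lines. It encodes INK4D (p19), a cell cycle-regulated member of the family, and lies on chromosome 9 from 21199700 to 21202727. PMC-303 had 31.7 CPM and PMC-306 29.8 CPM, a ratio of 1.06 with a counting interval from 0.954 to 1.18. The female cultures had 6.25, 3.43 and 9.33 CPM and the male cultures 7.51, 6.90 and 7.08 CPM, on average 6.75 ± 1.93 CPM (SD, n = 6). The groups did not overlap, and the log2 difference was 2.23 with an SE of 0.32 (adjusted p = 0.00111 by limma). The canonical transcript Cdkn2d-203 had 25.4 and 22.6 CPM in the lines against 1.39 to 7.51 CPM in the primary cultures (log2 difference 2.84, SE 0.53, adjusted p = 0.0132 by limma), although it lost this call without PMC-303 (adjusted p = 0.0904 by limma) or without PMC-306 (adjusted p = 0.0813 by limma). Cdkn2d-201, in which 150 bases are annotated as coding against 498 in Cdkn2d-203, had 6.24 and 7.23 CPM in the lines and from 0 to 6.19 CPM in the primary cultures (log2 difference 2.46, SE 1.80, adjusted p = 0.457 by limma). Its share of the gene's counts ran from 0% to 77.7% in the primary cultures and was 19.7% in PMC-303 and 24.2% in PMC-306.

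Cdkn2b stood apart because the lines disagreed. It encodes INK4B (p15), an inhibitor known as a target of TGF-beta signalling, and lies on chromosome 4 from 89223204 to 89229276, separated from Cdkn2a by 10313 bases. PMC-303 had 30.7 CPM, 4.30-fold over the highest primary culture. PMC-306 had 6.24 CPM, inside the range of the primary cultures, where the female values were 6.16, 6.15 and 3.69 CPM and the male values 5.26, 5.97 and 7.13 CPM (mean 5.73 ± 1.16, SD, n = 6). The ratio between the lines was 4.92 with a counting interval from 4.07 to 5.98. Together the lines did not pass the test (log2 difference 1.29, SE 0.51, adjusted p = 0.0822 by limma). PMC-303 alone gave 2.43 (adjusted p = 0.00196 by limma) and PMC-306 alone 0.15 (adjusted p = 0.771 by limma), where the lone library is assumed to vary like the primary cultures. All counts of Cdkn2b belonged to 1 transcript.

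Cdkn2a was the gene with the deepest fall, and it is given here for its place among its paralogues. PMC-303 had 1.40 CPM, with a counting interval from 0.969 to 1.96 CPM. PMC-306, with 3 counts, had 0.147 CPM and an interval from 0.0304 to 0.431 CPM, whereas the primary cultures ranged from 67.0 CPM in female culture 3 to 103 CPM in female culture 2. The log2 difference of -7.06 (SE 0.54, adjusted p = 8.75e-05 by limma) depends on the offset for PMC-306. INK4A had 0 counts in PMC-303 and 2 counts in PMC-306 and was called lower (adjusted p = 9.41e-06 by limma). The size of its log2 difference is set by the offset, with -9.10 at 0.1 CPM and -6.22 at 1 CPM. Arf had 34 counts (1.40 CPM) in PMC-303 and 1 count in PMC-306, against 3.35 to 4.71 CPM in the primary cultures. By RT-qPCR the paper reports a complete loss of Cdkn2a and Arf expression in PMC-303. Here the Arf transcript was called lower by a mean log2 difference of -3.16 (adjusted p = 0.0262 by limma). This value joins unlike lines and was -1.69 at an offset of 1 CPM. PMC-303 alone gave -1.49 (adjusted p = 0.0257 by limma) and PMC-306 alone -4.82 (adjusted p = 0.000679 by limma). With voom weights neither transcript passed (adjusted p = 0.0628 for INK4A and 0.0627 for Arf, by limma). In the primary cultures between 93.0% and 96.1% of the Cdkn2a counts were assigned to INK4A, and the Arf transcript lost its call without male culture 1 (-3.12, adjusted p = 0.0505 by limma) or without male culture 3 (-3.12, adjusted p = 0.0507 by limma).

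Compared as TPM, which is a level per transcript length, the INK4 family changed its make-up. In the primary cultures the summed level of the 4 INK4 genes was between 116 and 160 TPM, and Cdkn2a made up between 88.2% and 94.6% of it. The sum was 81.3 TPM in PMC-303 and 46.0 TPM in PMC-306, of which Cdkn2a held 2.52% and 0.505%. Cdkn2a was taken here as the whole gene, with Arf, to which all counts of Cdkn2a in PMC-303 were assigned. PMC-303 carried Cdkn2b, Cdkn2c and Cdkn2d at similar levels of 26.8, 24.6 and 27.7 TPM. PMC-306 carried mainly Cdkn2d with 27.2 TPM, followed by Cdkn2c with 12.99 TPM and Cdkn2b with 5.64 TPM. On this scale Cdkn2b of PMC-306 lay above the highest primary culture, which had 5.10 TPM, while on the CPM scale it lay within the range. Without Cdkn2a the sum was 79.2 TPM in PMC-303 and 45.8 TPM in PMC-306, against 8.64 to 14.5 TPM in the primary cultures.

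**Figure D2:**
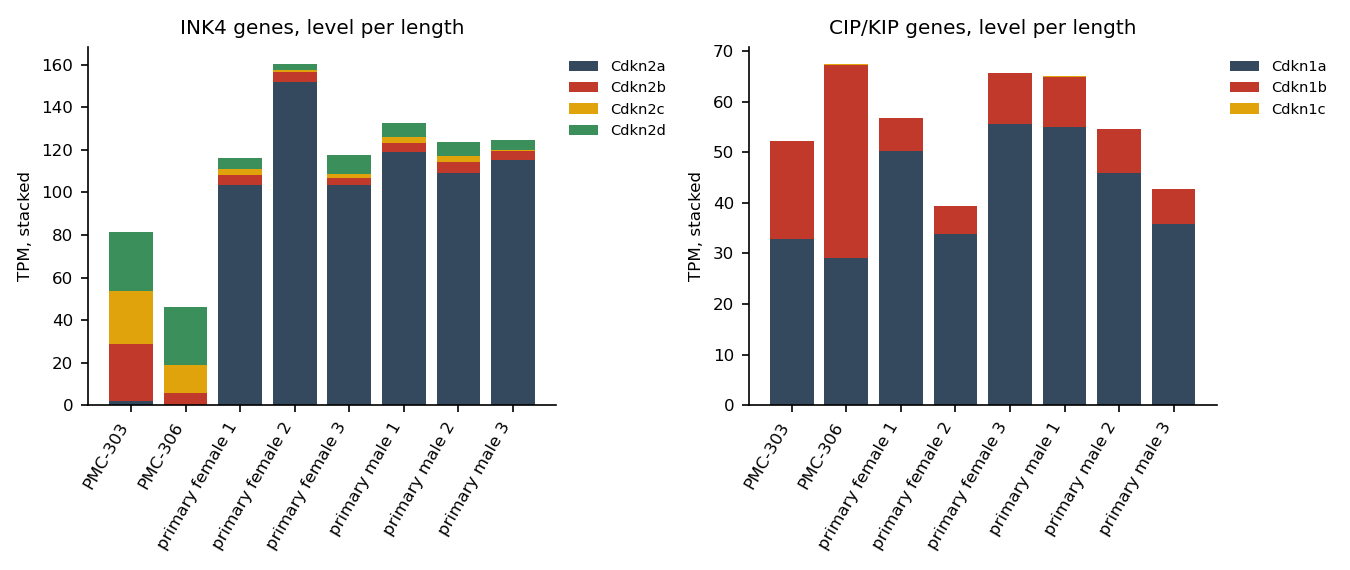
Stacked TPM (level per length, from 0) of the INK4 genes at the left and the CIP/KIP genes at the right in each of the 8 libraries. Cdkn2a, taken with Arf, makes up 88.2% to 94.6% of the INK4 sum in the primary cultures and 2.52% and 0.505% in PMC-303 and PMC-306. Cdkn1b makes up a larger share of the CIP/KIP sum in the lines.

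The CIP/KIP genes moved in opposite directions. Cdkn1b encodes KIP1 (p27), an inhibitor of cyclin E-CDK2 that is typically high in resting cells, and it lies on chromosome 6 from 134897364 to 134902476. It had 55.2 and 99.7 CPM in the lines PMC-303 and PMC-306. Female cultures 1 to 3 had 21.9, 15.5 and 27.0 CPM and the male cultures 25.2, 25.7 and 25.3 CPM, on average 23.4 ± 4.25 CPM (SD, n = 6). Both lines were above all primary cultures, and the log2 difference was 1.68 with an SE of 0.26 (adjusted p = 0.00171 by limma). PMC-306 exceeded PMC-303 by 1.81-fold with a counting interval from 1.69 to 1.94, the reverse of the order seen for Cdkn2b and Cdkn2c.

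The main transcript Cdkn1b-202 held between 58.5% and 71.8% of the gene's counts in the primary cultures, 65.5% in PMC-303 and 62.8% in PMC-306. It rose with the gene (log2 difference 1.67, SE 0.28, adjusted p = 0.00825 by limma), as did Cdkn1b-201 (1.98, SE 0.40, adjusted p = 0.0181 by limma). Cdkn1b-202 lost its call without PMC-306 (1.27, adjusted p = 0.0737 by limma), and Cdkn1b-201 lost it without either line (adjusted p = 0.0698 without PMC-303 and 0.133 without PMC-306, by limma). Cdkn1b-203 had 6.44 and 20.1 CPM in the lines PMC-303 and PMC-306 against 0 to 7.04 CPM in the primary cultures, and it was not called (adjusted p = 0.444 by limma).

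Cdkn1a, which encodes CIP1 (p21), a p53 target, lies on chromosome 17 from 29309936 to 29319701 and was modestly lower in the lines. PMC-303 had 52.6 CPM and PMC-306 43.3 CPM, against 80.6, 54.9 and 81.7 CPM in the female and 84.9, 71.4 and 71.9 CPM in the male cultures (mean 74.2 ± 10.9, SD, n = 6). The groups did not overlap, but PMC-303 lay close under female culture 2. The log2 difference was -0.62 with an SE of 0.16 (adjusted p = 0.0192 by limma). This call was lost without PMC-306 (-0.48, adjusted p = 0.140 by limma), with plain library totals (-0.51, adjusted p = 0.0543 by limma), on TPM (-0.55, adjusted p = 0.0883 by limma) and against the female cultures only (-0.58, adjusted p = 0.130 by limma).

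The transcripts of Cdkn1a did not all follow the gene. Cdkn1a-201, which held between 78.7% and 90.1% of the counts in the primary cultures, had 41.7 CPM in PMC-303, 28.5 CPM in PMC-306 and at least 48.0 CPM in the primary cultures (log2 difference -0.85, SE 0.19, adjusted p = 0.0274 by limma). It lost this call without PMC-306 (-0.57, adjusted p = 0.197 by limma), without female culture 1 (adjusted p = 0.0537 by limma) or without male culture 3 (adjusted p = 0.0527 by limma). The upstream transcripts Cdkn1a-202 and Cdkn1a-204, which begin at 29309953 and 29309950, fell by 2.74 and 2.66 on the log2 scale (adjusted p = 0.0122 and 0.00714 by limma), from at most 4.68 and 1.89 CPM. Cdkn1a-202 lost its call without PMC-306 (-2.29, adjusted p = 0.102 by limma), and both lost it with voom weights (adjusted p = 0.191 and 0.193 by limma). By contrast Cdkn1a-205 had 9.01 and 10.5 CPM in the lines PMC-303 and PMC-306 against 1.27 to 9.05 CPM (log2 difference 1.22, adjusted p = 0.261 by limma), and its share of the counts was 17.1% and 24.2% in the lines against 1.77% to 12.7% in the primary cultures. Cdkn1a-201, Cdkn1a-202 and Cdkn1a-205 have the same annotated coding length of 477 bases.

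**Figure D3:**
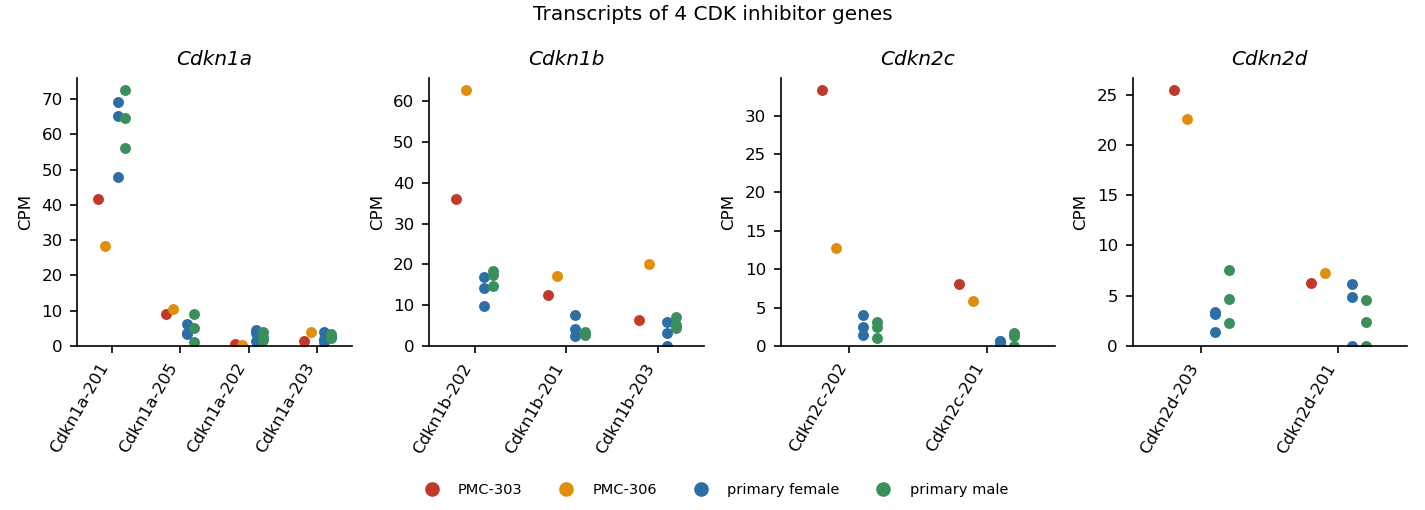
CPM (vertical axes, from 0) of the main transcripts of Cdkn1a, Cdkn1b, Cdkn2c and Cdkn2d in the 2 lines and the 6 primary cultures, 1 point per library. Cdkn1a-201 is lower in both lines than in the primary cultures, while Cdkn1b-202, Cdkn2c-202 and Cdkn2d-203 are higher in both lines than in every primary culture.

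Over the set, 19 of the 27 transcripts reached 1 CPM in a library, and the same 19 were tested. Among these 5 were called higher and 5 lower, where 5.46% and 4.92% of all 45029 transcripts tested were called. The CIP/KIP sum per length was 52.2 TPM in PMC-303 and 67.5 TPM in PMC-306, against 39.4 to 65.7 TPM in the primary cultures. Cdkn1b made up 36.9% of it in PMC-303 and 56.8% in PMC-306 but between 11.5% and 15.9% in the primary cultures. The third family member, Cdkn1c (p57), was near the limit of detection. It had 0 counts in PMC-303, 3 in PMC-306 and between 0 and 2 in the primary cultures and was not tested, so that no difference was detectable at this depth.

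Cdkn1c is an imprinted gene expressed from the maternal allele, and the long non-coding RNA Kcnq1ot1 of the paternal allele is known to silence it. Of 9 neighbours in this imprinted domain, chosen with results of these data known, 7 were tested, 3 were higher, 1 was lower and 3 were not called. Over all genes tested 18.3% were called higher and 15.5% lower. Kcnq1ot1 was the one called lower, with 2.68 CPM in PMC-303, 185 CPM in PMC-306 and from 217 to 385 CPM in the primary cultures (log2 difference -3.70, SE 1.21, adjusted p = 0.0451 by limma). This call rests on PMC-303, since without it the difference was -0.67 (adjusted p = 0.0972 by limma), and it was also lost when any single primary culture was left out, with adjusted p up to 0.0763 by limma. Tspan32, Tssc4 and Nap1l4 were higher, by 4.46, 0.88 and 0.42 on the log2 scale (adjusted p = 0.0162, 0.00298 and 0.0120 by limma). Tspan32 lost its call without PMC-306 (adjusted p = 0.154 by limma) and Nap1l4 without PMC-303 (adjusted p = 0.0897 by limma).

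Cdkn3 rose by an amount similar to that of Cdkn2c. It encodes a phosphatase that removes the activating phosphate of CDK2, is usually found in dividing cells, and lies on chromosome 14 from 46997904 to 47015505. PMC-303 had 14.3 CPM and PMC-306 13.2 CPM, a ratio of 1.09 with a counting interval from 0.923 to 1.28. The female cultures had 3.08, 0.791 and 1.27 CPM and the male cultures 1.99, 1.74 and 0.525 CPM (mean 1.57 ± 0.924, SD, n = 6), the widest relative spread of the genes tested, at 5.87-fold. The log2 difference was 3.25 with an SE of 0.56 (adjusted p = 0.00294 by limma). Cdkn3-201 and Cdkn3-202 held most counts, and Cdkn3-201 was called higher (log2 difference 3.63, adjusted p = 0.0226 by limma), though not without PMC-303 (adjusted p = 0.130 by limma) or without PMC-306 (adjusted p = 0.114 by limma).

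Mtap encodes methylthioadenosine phosphorylase, which returns the by-product of polyamine synthesis to methionine. It lies on chromosome 4 from 89055359 to 89099319, 93388 bases from Cdkn2a. PMC-303 had 52.9 CPM, above every primary culture, and PMC-306 had 1.28 CPM, below every one of them. The female cultures had 32.3, 41.1 and 29.8 CPM and the male cultures 36.5, 34.9 and 40.4 CPM (mean 35.8 ± 4.43, SD, n = 6). The ratio between the lines was 41.4 with a counting interval from 28.1 to 63.7, and together they were not called (log2 difference -2.06, SE 1.05, adjusted p = 0.165 by limma). PMC-306 alone gave -4.70 (adjusted p = 2.69e-05 by limma) and PMC-303 alone 0.57 (adjusted p = 0.0489 by limma).

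Of 13 genes of methionine metabolism, polyamine synthesis and the PRMT5 complex, all tested, 3 were higher, near the 18.3% over all genes, and 0 lower by limma, with a median log2 difference of 0.15 beside -0.01 over all genes, and 10 were not called. Spermine synthase (Sms) and Enoph1, an enzyme of the salvage pathway, were higher by 0.96 and 0.58 on the log2 scale (adjusted p = 0.00135 and 0.00372 by limma). The third, Clns1a, a partner of the arginine methyltransferase Prmt5, was higher by 0.24 (adjusted p = 0.0473 by limma) and lost this call without either line (adjusted p = 0.128 without PMC-303 and 0.154 without PMC-306, by limma) and without any 1 of 5 primary cultures. Prmt5 itself, whose product is known to be sensitive to the substrate of MTAP, had 23.3 and 32.5 CPM in the lines PMC-303 and PMC-306 against 18.5 to 29.2 CPM in the primary cultures (adjusted p = 0.514 by limma).

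Between Mtap and Cdkn2a the annotation holds Gm12606, a long non-coding RNA gene that was singled out after its values were seen. It lies on the minus strand from 89153936 to 89191640, so that 1067 bases separate it from the end of Cdkn2a on the same strand. Gm12606 had 241 counts in PMC-303, which is 9.92 CPM, and 0 counts in PMC-306. In the 6 primary cultures together it had 3 counts, 2 of them in female culture 2 and 1 in male culture 2. The ratio of PMC-303 to the pooled primary rate was 391 with a counting interval from 132 to 1909. Of the 241 counts, 187 were assigned to the transcript that begins at 89191640 and 53.6 to one that begins at 89190824. Cdkn2a, beside it, had 34 counts in PMC-303, all on Arf. Of 13 coding neighbours on this part of chromosome 4, 8 were tested, 2 were lower (Hacd4 and Klhl9) and 6 were not called. Of all genes tested 15.5% were called lower. The deletion reported for PMC-306 lies on this part of chromosome 4, and its part in these values was not tested. Hacd4 lost its call without PMC-306 (adjusted p = 0.114 by limma), and Klhl9 lost it without PMC-306 (adjusted p = 0.280 by limma) or any 1 primary culture (adjusted p from 0.0679 to 0.0754 by limma). Without PMC-303 there were 6 lower and without PMC-306 2 higher and 0 lower.

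The direct partners of the inhibitors were read beside them. The kinases and cyclins that INK4 proteins act on were mostly lower in the lines, with 4 of 5 called lower and 1 higher. Over all genes tested 15.5% were called lower and 18.3% higher. Cdk6 had 257 and 49.0 CPM in the lines PMC-303 and PMC-306 against 354 to 511 CPM (log2 difference -1.95, SE 0.49, adjusted p = 0.0161 by limma). Cdk4 rose from 116 ± 6.50 CPM (SD, n = 6) to 155 CPM in both lines (log2 difference 0.42, SE 0.07, adjusted p = 0.00285 by limma). The D cyclins Ccnd1, Ccnd2 and Ccnd3 fell by 1.74, 1.91 and 1.24 on the log2 scale (adjusted p = 0.00505, 0.000378 and 0.00639 by limma). Against the female or the male cultures only, Cdk6 (adjusted p = 0.101 and 0.115 by limma) and Ccnd3 (adjusted p = 0.0728 and 0.0540 by limma) missed the threshold. Ccnd2 had 2669 ± 355 CPM (SD, n = 6) in the primary cultures, 940 and 528 CPM in the lines PMC-303 and PMC-306.

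On the side of CDK2 and CDK1, where CIP/KIP proteins and the CDKN3 phosphatase act, 10 of 10 genes tested were higher, beside 18.3% of all genes tested. Their median log2 difference was 3.59. Cdk2 had 89.9 and 101 CPM in the lines PMC-303 and PMC-306 against 31.3 ± 8.72 CPM (SD, n = 6). The E cyclins Ccne1 and Ccne2 rose by 2.28 and 2.62 on the log2 scale (adjusted p = 0.000767 and 0.000183 by limma), and Ccna2, the cyclin of S phase, by 3.98 (adjusted p = 0.000478 by limma). The phosphatase gene Cdc25b, which activates CDKs, rose by 3.74 (adjusted p = 0.00028 by limma). Of the pocket proteins and E2F factors downstream, 7 of 13 were higher, 1 lower and 5 not called, beside 18.3% higher and 15.5% lower over all genes. Rb1 was not called, with 253 and 159 CPM in the lines PMC-303 and PMC-306 against 168 to 207 CPM (log2 difference 0.10, adjusted p = 0.681 by limma), whereas its relative Rbl1 rose by 2.13 and E2f2 by 3.43 (adjusted p = 0.000267 and 0.000342 by limma).

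**Figure D4:**
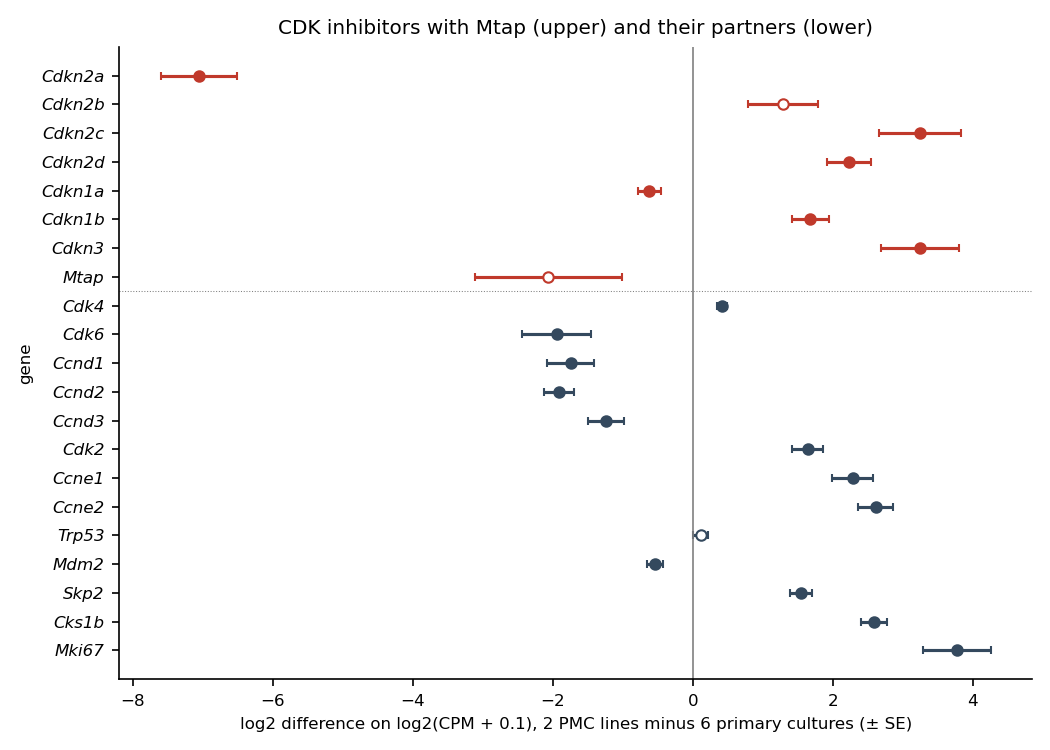
Log2 difference on log2(CPM + 0.1) between the 2 lines and the 6 primary cultures (horizontal axis) with its SE (bars), for the inhibitors with Mtap (red, upper) and their partners (dark, lower). Filled points were called by limma and open points were not. D cyclins and Cdk6 lie left of 0, and Cdk2, E cyclins, Skp2 and Cks1b lie right of 0, as do Cdkn1b, Cdkn2c, Cdkn2d and Cdkn3.

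CIP/KIP proteins are removed by ubiquitin ligases, and 4 of 10 genes of these ligases were higher, 0 lower and 6 not called. Over all genes tested 18.3% were called higher and 15.5% lower. Skp2, the receptor of the ligase for p27, had 20.2 and 17.1 CPM in PMC-303 and PMC-306 against 5.01 to 7.12 CPM, and its cofactor Cks1b had 55.6 and 54.7 CPM against 7.08 to 11.8 CPM. The log2 differences were 1.55 and 2.59 (adjusted p = 0.000223 and 7.92e-05 by limma). Dtl, the receptor of the ligase for p21, rose by 2.68 (adjusted p = 0.000368 by limma). Transcripts of Cdkn1b and of the ligase for its product were thus both higher in the lines, and protein levels were not measured here.

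Upstream of Cdkn1a, 5 genes of the p53 axis were tested, of which Npm1 was higher and Mdm2 lower, beside 18.3% and 15.5% of all genes tested. Trp53 itself was not called. It had 49.7 CPM in PMC-303, 39.5 CPM in PMC-306 and from 38.0 to 46.4 CPM in the primary cultures (log2 difference 0.11, adjusted p = 0.459 by limma). Mdm2, itself a p53 target and the ligase that ARF holds back, was lower by 0.54 on the log2 scale (adjusted p = 0.00723 by limma), and this call was lost without PMC-306 (adjusted p = 0.0555 by limma). Of 16 further p53 targets 9 were lower, 0 higher and 7 not called, with a median log2 difference of -0.94, where 15.5% of all genes tested were called lower. Zmat3, an RNA-binding p53 target, had 24.5 and 19.7 CPM in PMC-303 and PMC-306 against 68.2 to 84.1 CPM (log2 difference -1.82, adjusted p = 5.41e-05 by limma), and Trp53inp1 fell by 1.39 (adjusted p = 0.000256 by limma). Gadd45a and Eda2r were lower in both lines by unequal amounts, Gadd45a with 0.288 and 5.21 CPM and Eda2r with 3.46 and 0 CPM in PMC-303 and PMC-306. Gadd45a lost its call without PMC-303 (adjusted p = 0.104 by limma) and Eda2r without PMC-306 (adjusted p = 0.106 by limma). Without PMC-303, 11 targets were lower and 2 higher.

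Of 23 genes known to control the Cdkn2a locus, 20 were tested, 5 were higher, 3 lower and 12 not called, with a median log2 difference of 0.11. These counts lie near the 18.3% and 15.5% over all genes, and plain library totals gave 6 higher and 1 lower. Among the 5 genes called higher were the polycomb genes Ezh2, Suz12, Rnf2 and Eed, whose products silence the locus. Their log2 differences were 0.90, 0.69, 0.55 and 0.39 (adjusted p = 0.0012, 0.00448, 0.00756 and 0.0239 by limma). The 3 genes called lower are not named here, and polycomb genes were not tested as a group. Rnf2 lost its call without PMC-306 (adjusted p = 0.0507 by limma) and Eed without PMC-303 (adjusted p = 0.184 by limma). Bmi1, the best known repressor of Cdkn2a, had 95.5 and 80.4 CPM against 88.5 to 124 CPM in the primary cultures (adjusted p = 0.157 by limma).

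Of 11 FOXO, SMAD and MYC genes, which are known to control Cdkn1b and Cdkn2b, 1 was higher, 3 lower and 7 not called. Their median log2 difference was -0.28, and over all genes tested 18.3% were called higher and 15.5% lower. The TGF-beta receptor gene Tgfbr1 had 536 and 586 CPM in the lines PMC-303 and PMC-306 against a primary mean of 1712 ± 253 CPM (SD, n = 6), and fell by 1.60 on the log2 scale (adjusted p = 0.00023 by limma), and Foxo3 was lower by 0.52 (adjusted p = 0.00292 by limma). Smad3, with at most 1.26 CPM in any library, was lower by 1.62 (adjusted p = 0.0217 by limma), though not without PMC-303 (adjusted p = 0.168 by limma). Smad4 was higher by 0.26 (adjusted p = 0.0189 by limma), though not without PMC-306 (adjusted p = 0.114 by limma). Myc was not called, with 45.1 and 66.2 CPM in PMC-303 and PMC-306 against 43.0 to 52.3 CPM (adjusted p = 0.319 by limma).

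Cdkn2c, Cdkn2d and Cdkn3 were set beside genes of dividing cells. All 16 genes of this list were higher in the lines, beside 18.3% of all genes tested, with a median log2 difference of 3.48. The proliferation marker Mki67 had 1015 and 835 CPM in the lines PMC-303 and PMC-306 against 28.6 to 106 CPM. The mean log2(CPM + 0.1) of the list was 7.34 in PMC-303 and 7.05 in PMC-306. In the primary cultures it was 4.47, 3.84 and 4.43 in female and 4.50, 4.41 and 3.48 in male cultures 1 to 3, lowest in the cultures in which Cdkn2c and Cdkn3 were lowest.

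Within the 6 primary cultures, 8 genes were each related to this mean. Cdkn2c gave a Pearson r of 0.97 (exact permutation p = 0.0153, adjusted over the 8 relations 0.0611) and a Spearman rho of 0.71 (exact permutation p = 0.136, adjusted 0.363). Cdkn3 gave r = 0.90 (exact permutation p = 0.00833, adjusted 0.0611) and rho = 0.89 (exact permutation p = 0.0333, adjusted 0.267). None of the 8 relations passed after adjustment. Without female culture 2 and male culture 3, the 2 cultures farthest from the median of the list, r was 0.19 for Cdkn2c and 0.53 for Cdkn3, so that both relations rest on these cultures. Cdkn2a and Mtap ran the other way. Cdkn2a gave r = -0.88 (exact permutation p = 0.0639, adjusted 0.170) and rho = -0.43 (exact permutation p = 0.419, adjusted 0.559), and r turned to 0.75 without these cultures. Mtap gave r = -0.77 (exact permutation p = 0.10, adjusted 0.20) and rho = -0.54 (exact permutation p = 0.297, adjusted 0.476), and r was 0.38 without them. Cdkn1a gave r = 0.61 and rho = 0.77 (exact permutation p = 0.169 and 0.103, adjusted 0.271 and 0.363), with r = 0.81 without them. For Cdkn2b r was -0.59 and rho -0.54 (exact permutation p = 0.217 and 0.297, adjusted 0.289 and 0.476), and r was 0.19 without them. Cdkn2d gave r = 0.41 and rho = 0.31 (exact permutation p = 0.454 and 0.564, adjusted 0.519 and 0.644), with r = -0.22 without them. Cdkn1b gave r = 0.34 and rho = -0.029 (exact permutation p = 0.558 and 1.00, adjusted 0.558 and 1.00), with r = -0.45 without them. Each sex has 3 cultures, too few for a value within a sex.

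**Figure D5:**
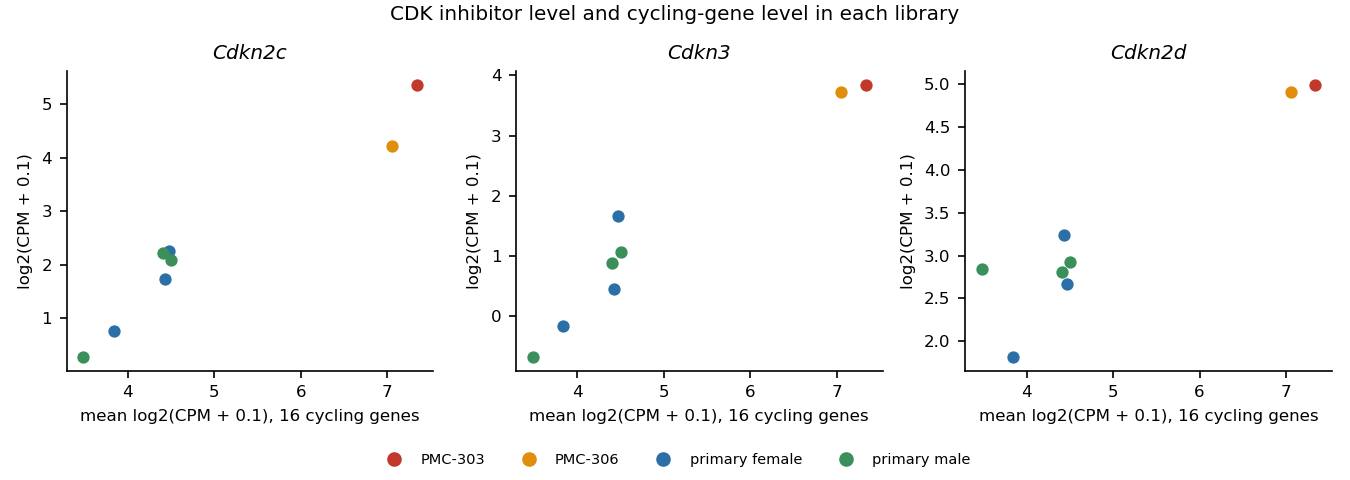
Log2(CPM + 0.1) of Cdkn2c, Cdkn3 and Cdkn2d (vertical axes) against the mean log2(CPM + 0.1) of 16 genes of dividing cells (horizontal axes), 1 point per library. The 2 lines lie at 7.05 and 7.34 on the horizontal axis and the primary cultures between 3.48 and 4.50, and for Cdkn2c and Cdkn3 male culture 3 is the lowest point.

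The 150 bases before the first transcribed base are shown for the inhibitors that rose in both lines and held a match to one of 3 motifs, in capitals. No matches overlap. The letters searched on both strands were TTTGGCGC, TTTCCCGC, TTTGCCGC and TTTCGCGC for E2F, TTTGAA for the cell cycle homology region (CHR) of G2/M genes and CCAAT for the NF-Y box. The windows are chr9:21202728-21202877 on the minus strand, chr14:46997754-46997903 on the plus strand and chr6:134897214-134897363 on the plus strand of GRCm39.
Cdkn2d-203: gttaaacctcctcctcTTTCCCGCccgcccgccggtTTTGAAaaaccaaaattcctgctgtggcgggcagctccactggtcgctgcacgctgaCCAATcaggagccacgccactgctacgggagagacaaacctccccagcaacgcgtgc
Cdkn3-201: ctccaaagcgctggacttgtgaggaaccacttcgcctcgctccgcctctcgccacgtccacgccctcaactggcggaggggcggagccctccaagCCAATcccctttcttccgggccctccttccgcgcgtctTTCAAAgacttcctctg
Cdkn1b-202: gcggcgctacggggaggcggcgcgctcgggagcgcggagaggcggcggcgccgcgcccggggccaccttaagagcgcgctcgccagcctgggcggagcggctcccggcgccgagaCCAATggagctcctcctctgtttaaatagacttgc
Cdkn2d held 1 match to each motif, Cdkn3 held 1 to CHR and 1 to CCAAT, and Cdkn1b held 1 to CCAAT. Among 21627 windows of the same length at coding genes, 1.5% held an E2F spelling, 8.01% a CHR and 27.7% a CCAAT. The windows of Cdkn2c-202, Cdkn2c-201, Cdkn2b, INK4A, Cdkn1a-201 and Mtap held no match, and that of Arf held 1 E2F spelling. A match is a description of letters, not of binding.

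The genes most like each inhibitor over the 8 libraries were named by the Pearson r of log2(CPM + 0.1), among the 8750 genes that averaged 10 CPM or more. These values carry no test and mostly follow the split between 2 lines and 6 primary cultures. The exceptions are Cdkn2b and Mtap, in which the lines disagreed. Values for Cdkn2b rest mainly on PMC-303 and those for Mtap mainly on PMC-306. Stmn1, a microtubule regulator of dividing cells, was among the closest pair for both Cdkn2c (r = 0.99) and Cdkn3 (r = 0.99), followed by Wdr90 for Cdkn2c and led by Brca2 for Cdkn3. Nudt4 and Arl6ip6 were closest to Cdkn2d (r = 0.99 each), and Bcl10 and Sub1 to Cdkn1b (r = 0.99 each). For Cdkn2b the closest genes were Mcph1 and Jazf1 (r = 0.98 and 0.97), for Cdkn1a Hdac4 and Grk5 (r = 0.99 and 0.98), and for Cdkn2a Cdc42bpb and Gm49083 (r = 0.997 and 0.996). Pla2g7 and Sgce were closest to Mtap (r = 0.99 each), and Pla2g7 had 624 CPM in PMC-303 and was at 0 counts in PMC-306, while the primary mean was 270 ± 52.5 CPM (SD, n = 6).

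No difference between female and male primary cultures passed the test in these genes. By limma 0 of 8 genes were called, beside 0.0438% of all 13710 genes tested, and 0 of 8 had an unadjusted p under 0.05, beside 457 of all genes. The log2 differences, female minus male, ran from -0.29 for Cdkn2d to 0.23 for Cdkn3, with SEs between 0.13 and 0.64. Cdkn2d and Cdkn1b were the more even in the male cultures, with 7.16 ± 0.313 and 25.4 ± 0.244 CPM (SD, n = 3) against 6.34 ± 2.95 and 21.4 ± 5.78 CPM in the female cultures (SD, n = 3).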

How the data were processed

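Stranded total RNA libraries of 8 PMC cultures were analysed. According to the submitters' processing notes, reads were trimmed with Trim Galore 0.6.7, aligned to GRCm39 with STAR 2.7.9a and quantified with Salmon 1.5.2. The authors deposited tables of genes and transcripts with estimated counts, not normalized, and gene tables of TPM, scaled for length and library size. A spreadsheet program had rewritten 3.37%, 3.22% and 20.8% of these cells, and they were set back to numbers. In 96722 TPM cells the point was placed with the help of the counts, so TPM is not independent of them. The summed transcripts then differed by at most 0.2 counts from 99.7% of the gene counts. Because of the rewritten cells the tables were handled with limma 3.58.1 in R 4.3.3 and not with a count model.

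Counts were scaled with trimmed mean of M values library sizes, computed here. A filter asked for about 10 counts in the smaller group's number of libraries and for 15 over all. The log2(CPM + 0.1) values were fitted with a trend of variance on mean, and genes called at an adjusted p under 0.05. A single line, with 1 library, was tested by leaving out the other line, taking its spread from the primary cultures. Otherwise its values are set beside the primary range, and ratios between lines carry exact 95% counting intervals. Positions come from GENCODE M39 on GRCm39, which held 98.9% of the deposited genes. The members and gene lists were chosen with earlier results of these data known. Named genes are the members, their direct partners, up to 4 called genes with the largest difference per list, and the 2 genes most like each member. Gm12606 was added after its values were seen. Other steps ran in Python 3.11.15 (scipy 1.17.1, pandas 2.3.3, numpy 2.4.6).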

Additional observations from a re-analysis of the deposited data

Results flagged for a closer look

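Mtap was 148% of the primary mean in PMC-303 and 3.56% in PMC-306, and its transcript Mtap-201 148% and 3.58%. Every primary culture lay between the lines, so that they moved in opposite directions. PMC-303 and PMC-306 were not tested directly against each other. The transcript Cdkn1b-201 had 7.71 CPM in primary female culture 1, far from the next highest culture with 4.28 CPM. In this culture Cdkn1b-203 had 0 counts, while the gene Cdkn1b lay within the range of the other cultures. Of 27 genes and transcripts searched for such a culture 1 was found, and chance gives about 1.35.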

How the results depend on the processing

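The lines gave 4920 called genes. Against the female or the male primary cultures only, 2160 and 3033 genes were called, and leaving out 1 library gave 3848 to 4665. For transcripts 4673 were called, and 3031 to 4079 without 1 library. Plain library totals moved the median of all genes by 0.108 on the log2 scale and turned 2665 higher and 2255 lower genes into 3406 and 1665. On TPM there were 2371 and 980. With an offset of 1 CPM the log2 fold of Cdkn2a was -5.12 in PMC-303 and -6.18 in PMC-306 and that of Mtap -4.02 in PMC-306, which was -4.46 on TPM. Without 1 library the direction turned for Mtap (-4.70 to 0.57), Mtap-201 (-4.69 to 0.57), Trp53 (-0.055 to 0.28) and Cdkn1a-203 (-0.82 to 0.75), the last also with plain totals (0.072). Against 1 sex only, calls were also lost for Clns1a, Eda2r, Eed, Gadd45a, Hacd4, Kcnq1ot1, Klhl9, Mdm2, Nap1l4, Rnf2, Smad3, Smad4 and Tspan32, and on TPM for Clns1a, Foxo3, Hacd4, Klhl9, Mdm2, Smad3 and Smad4. The causes were not tested.

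Between sexes 6 genes were called, and 5 to 7 under the alternatives. Without 1 culture the uncalled log2 differences turned for Cdkn1a (-0.19 to 0.10), Cdkn2a (-0.24 to 0.080), Cdkn2b (-0.34 to 0.018), Cdkn2c (-0.57 to 0.47), Cdkn2d (-0.62 to 0.092) and Cdkn3 (-0.32 to 0.64). Same-numbered female and male cultures did not all deviate together (correlations 0.405, -0.216 and 0.284), so that the numbers were not taken as pairs, and a replicate block gave 5 called genes. Depth limits Cdkn1c, Cdkn2a in PMC-306 and the transcripts of Cdkn3 in the primary cultures.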
